A study of Mus musculus with 4 samples.

Results

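The 10 genes described here encode receptors of the TNF receptor superfamily that lymphocytes carry: TNFRSF1A, TNFRSF1B, TNFRSF4, TNFRSF9, TNFRSF14, TNFRSF18, TNFRSF25, CD27, CD40 and FAS. They were picked by name among the 33538 human genes counted. All 10 were found under 1 Ensembl identifier each: TNFRSF1A (ENSG00000067182), TNFRSF1B (ENSG00000028137), TNFRSF4 (ENSG00000186827), TNFRSF9 (ENSG00000049249), TNFRSF14 (ENSG00000157873), TNFRSF18 (ENSG00000186891), TNFRSF25 (ENSG00000215788), CD27 (ENSG00000139193), CD40 (ENSG00000101017) and FAS (ENSG00000026103). Each was read in human cells of the T and B lineages, in every library.

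Receptors of this family bind ligands that sit as trimers on the surface of other cells or are shed from it, and they signal through adaptor proteins. TNFRSF1A (TNF receptor 1), FAS and TNFRSF25 (death receptor 3) carry a death domain, through which they can recruit FADD or TRADD and start either cell death or NF-κB signalling. TNFRSF1B (TNF receptor 2), TNFRSF4 (OX40), TNFRSF9 (4-1BB), TNFRSF14 (HVEM), TNFRSF18 (GITR), CD27 and CD40 lack that domain and recruit TRAF proteins. In lymphocytes the latter are known mainly as costimulators: CD40 on B cells receives CD40LG from helper T cells, CD27 receives CD70, and OX40, 4-1BB and GITR are held at high level by regulatory T cells or appear after T cell activation.

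The cells came from huNSG-SGM3 mice, which are immunodeficient hosts (NOD.Cg-Prkdcscid IL2rgtm1Wjl) engrafted with human CD34+ cells from umbilical cord blood and carrying human IL3, CSF2 and KITLG under the CMV promoter. The hosts lack T, B and NK cells of their own, so every human lymphocyte had developed in a mouse. There were 4 libraries of live human CD45+ cells, sorted and pooled over animals: blood of naïve mice (males, no surgery), blood of sham mice (males, laminectomy at T9), blood of mice with a T9 spinal cord injury (SCI; males and females pooled), and the injured spinal cord (SCI cord). The labels give an age of 15 weeks, and surgery preceded collection by 7 days. Blood was lysed and sorted, whereas the cord was digested with papain at 37 °C and enriched on magnetic beads before the sort. Host sex cannot be told apart from injury, and tissue cannot be told apart from dissociation. With 1 library per condition there was no replicate, no test was possible and no p-value is given. All intervals below are 95% intervals that cover counting error only.

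The 3 blood libraries held 34161760 to 36487994 UMIs and the cord library 4206461. Of 22830 barcodes, 18106 had more than 50% of their UMIs on human genes, and 17022 of these were kept after filters: 6324 from naïve blood, 4645 from sham blood, 5935 from SCI blood and 118 from the cord. The median cell had 3697.5 UMIs in naïve, 5230 in sham, 4655 in SCI blood and 9331 in the cord, so levels are given as CPM: the UMIs of a gene summed over the cells of a class, per 1000000 human UMIs without ribosomal protein and mitochondrial genes. Library pairs shared 0 to 16 barcodes. CPM from 3′ tags compares a gene between cells and not 1 gene with another.

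Cells were clustered without the 10 genes and without their ligands and adaptors. A T-like class was formed by 6 clusters, with 4213, 3680, 4623 and 66 cells in naïve, sham, SCI blood and cord, and all 7 general T cell markers had UMIs in it in every library. These clusters were Treg-like (led by FOXP3 and PTGIR), a CD4 T-like cluster led by AC004585.1 and CCR10 with PDCD1 among its leading genes (called CCR10 here), a CD4 T-like cluster led by ST6GALNAC1 and USP46, CD8 T-like (CD8B, NELL2), naive T-like (NRP2, AK5) and cytotoxic T-like (GNLY, GZMB). A B-like class of 1274, 569, 940 and 9 cells held a main cluster led by TCL1A and IGKC, a cluster led by AIM2 and TNFRSF13B with IGHG1 among its leading genes, and a small one led by MPP6 and FCRL5. All 10 B cell markers had UMIs in the B-like class in every library. The other clusters were plasma-like, monocyte-like, basophil or mast-like and cycling, and 1 led by CLC was left unnamed (28 cells, of which 13 were in the cord).

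Barcodes that may hold more than 1 cell bear on the B-like class. Marked as doublets were 87 of its cells in naïve blood (6.83%), 8 in sham (1.41%) and 41 in SCI blood (4.36%). Most of them sat in the AIM2 cluster, where 84 of the 256 naïve cells were marked, 1 of the 4 sham cells and 34 of the 43 SCI blood cells. B-like values that rest on them are therefore given with and without the marked cells. In T-like cells 5.41%, 4.59% and 4.93% were marked, and in the cytotoxic T-like cluster 13.5%, 11.6% and 13.6%. The cord library was too small for the marking rule to mark any barcode, so cord cells were not screened for doublets.

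The death receptor genes divided the lymphocytes first. TNFRSF1A, the receptor for soluble TNF, stood at 37.0 CPM in T-like cells of naïve blood, 31.9 in sham and 36.9 in SCI blood. In B-like cells it was at 2.22, 2.91 and 2.71 CPM, resting on 8, 7 and 9 UMIs. No blood library overlapped between the classes. The T-like level was 15.7-fold the B-like level in naïve blood, with 10.2 and 12.9-fold for sham and SCI blood (log2 ratio of B-like to T-like cells in naïve blood -3.98, interval -5.28 to -3.07). Without marked doublets the folds were 39.4, 10.7 and 38.4, on only 3, 7 and 3 B-like UMIs. Among clusters the monocyte-like cells held the highest mean level, 194 CPM over the blood libraries, apart from all others, followed by cytotoxic T-like cells with 59.2 and CD8 T-like cells with 39.5. Monocyte markers summed to 39.0, 196 and 18.6 CPM in B-like cells, with 8, 7 and 6 of 9 detected, and their part in the B-like UMIs of TNFRSF1A was not tested.

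TNFRSF25, the receptor for TNFSF15 (TL1A), was likewise a T lineage transcript. T-like cells held 292, 297 and 249 CPM in naïve, sham and SCI blood. B-like cells held 24.4, 8.73 and 12 CPM with the marked doublets and 7.52, 5.93 and 5.15 without them. Within the T lineage it was highest in the CCR10 CD4 T-like cluster (mean 357 CPM), the ST6GALNAC1 CD4 T-like cluster (330) and Treg-like cells (317), whose ranges over the blood libraries overlapped in that order. CD8 T-like cells held 156, 166 and 173 CPM and cytotoxic T-like cells 137, 190 and 174, below the lowest of these CD4 and Treg-like values.

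FAS, the receptor for FASLG, was present in both classes. T-like cells held 61.0, 55.8 and 72.8 CPM and B-like cells 25.2, 15.0 and 16.8 CPM in naïve, sham and SCI blood. The T-like level was the higher one in each library, by 2.41, 3.68 and 4.29-fold. Treg-like cells came first with a mean of 129 CPM, apart from the next in order, which were cycling cells with 70.0.

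CD40, the costimulatory receptor of antigen-presenting cells, was the one gene of the 10 that was past 1.5-fold higher in B-like than in T-like cells in every blood library. B-like cells held 217, 248 and 232 CPM in naïve, sham and SCI blood, on 784, 596 and 771 UMIs. T-like cells held 0.954, 0.694 and 0.717 CPM on 11, 10 and 11 UMIs. The B-like level was 218, 340 and 309-fold higher. The T-like level was at most 0.439% of it, while the summed B cell markers stood in T-like cells at 1.02% to 1.26% of their B-like level. Monocyte-like cells also had CD40, at 83.2, 88.6 and 79.8 CPM, below the AIM2 B cluster (171 in naïve and 131 in SCI blood) and the main B cluster (243, 252 and 240).

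CD27, the receptor for CD70, stood at 667, 644 and 581 CPM in T-like cells. Cytotoxic T-like cells (1036, 813 and 703 CPM in naïve, sham and SCI blood) and Treg-like cells (812, 812 and 764) overlapped at the top. In B-like cells the gene was at 108, 24.1 and 43.3 CPM, and at 74.8, 21.2 and 23.2 without marked doublets, so it was lower than in T-like cells in each library either way. CD27 lies opposite the antisense gene CD27-AS1, and whether the counting used strand is not given in the sources used here.

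TNFRSF1B, the high-affinity receptor for membrane TNF, was at 156, 137 and 95 CPM in T-like cells and at 77, 49.9 and 49.9 CPM in B-like cells. The small FCRL5 B cluster held more of it than the main B cluster, 126, 153 and 101 CPM on 48, 45 and 23 cells against 53.0, 40.8 and 42.2. TNFRSF14, which binds TNFSF14 (LIGHT) and LTA, differed least between the classes: T-like cells held 170, 169 and 166 CPM and B-like cells 162, 168 and 150. Its 6 T-like clusters and the main B cluster all lay between 133 and 190 CPM in blood, whereas monocyte-like cells lay between 51.3 and 76.5.

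TNFRSF4 and TNFRSF18, which sit side by side in the genome and are both known from regulatory T cells, differed in B-like cells. TNFRSF4 stood at 205, 217 and 111 CPM in T-like cells against 16.6, 7.07 and 12.3 CPM in B-like cells, or 5.95, 2.96 and 9.66 without marked doublets. TNFRSF18 stood at 177, 166 and 80.1 CPM in T-like cells against 216, 248 and 296 CPM in B-like cells, so here the B-like level was the higher one in each library (log2 ratios 0.28, 0.58 and 1.89). For every 100 TNFRSF18 UMIs there were 104, 109 and 123 TNFRSF4 UMIs in Treg-like cells but 7.71, 2.85 and 4.16 in B-like cells of the same libraries, or 2.71, 1.19 and 3.17 without marked doublets. Basophil or mast-like cells held both genes, TNFRSF4 at 242, 152 and 186 CPM and TNFRSF18 at 253, 199 and 201. Summed basophil markers were at 1.39, 6.65 and 2.10 CPM in B-like cells, and the Treg markers at 88.4, 57.8 and 81.5 CPM there against 1863, 1903 and 1545 in Treg-like cells.

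TNFRSF9, an activation marker of T and NK cells, was sparse, with 75, 54 and 28 UMIs over all T-like cells and 7, 0 and 2 over all B-like cells. Of the 75 in naïve blood, 54 were in cytotoxic T-like cells, where the level was 36.8 CPM against 9.89 in sham and 13.2 in SCI blood. No UMI of it was found in the ST6GALNAC1 CD4 T-like and naive T-like clusters of any blood library.

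**Figure D1:**
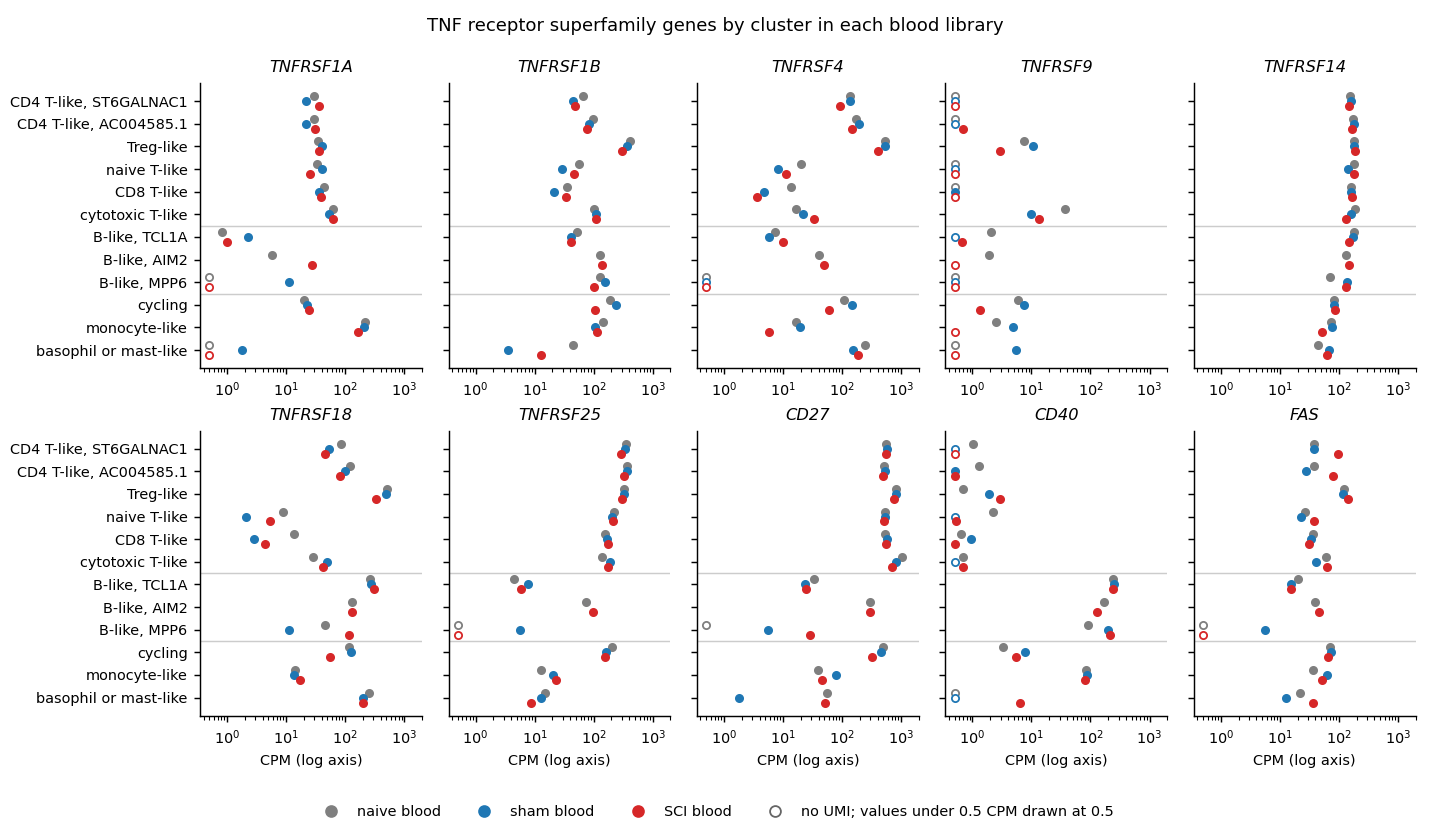
Levels of the 10 genes in each cell cluster or class (vertical positions, named by their leading gene) in naïve, sham and SCI blood, 1 panel per gene, as CPM of summed UMIs on a log axis; open circles mark sums without a UMI, values under 0.5 CPM are drawn at 0.5, and sums under 10 cells are not drawn. CD40 is high in B-like and monocyte-like cells, TNFRSF18 in Treg-like, main B (TCL1A) and basophil or mast-like cells, and TNFRSF14 is nearly level over the T-like clusters.

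Over the 3 blood libraries, 1 of the 10 genes (CD40) was past 1.5-fold higher in B-like than in T-like cells in every library, where 13.0% of all genes with at least 20 counts were. In the other direction 7 were (TNFRSF1A, TNFRSF1B, TNFRSF4, TNFRSF9, TNFRSF25, CD27 and FAS), beside 14.7% of all genes. The classes came from clustering the same cells, so these ratios describe them and are no test. For TNFRSF9 the ratio of B-like to T-like cells rests on so few UMIs that its log2 interval in SCI blood ran from -4.72 to 0.39.

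T cell transcripts can reach B-like barcodes as free RNA or through doublets, and the T cell markers give the size of this. Summed over the 7 general T markers, the B-like level was 8.19%, 3.63% and 6.91% of the T-like level in naïve, sham and SCI blood, with single markers between 0.953% and 19.7%. Without marked doublets it was 2.73%, 2.99% and 3.69%, with single markers between 0.296% and 16.5%. TRBC2 was the highest marker in each library (14.0%, 12.6% and 16.5%), and the other 6 reached at most 8.35%. Without marked doublets TNFRSF25 stood at 2.58%, 2.00% and 2.08% of its T-like level, and TNFRSF1A (2.54%, 9.38% and 2.60%), TNFRSF4 (2.86%, 1.35% and 8.54%) and CD27 (11.2%, 3.28% and 4.01%) each passed 8.35% in 1 library. How many of these UMIs came from T cells was not tested. FAS (20.1% to 40.3%), TNFRSF1B (34.9% to 48.1%) and TNFRSF18 (121% to 373%) lay above every T marker. Barcodes of mouse cells, with under 10% human UMIs, had a UMI of any 1 of the 10 genes in at most 1.18% of cases. That is not small beside the lowest levels. UMIs per mouse barcode were 5.19%, 31.9% and 19.4% of those per B-like cell (marked cells included) for TNFRSF25 in naïve, sham and SCI blood. For TNFRSF4 they were 6.08%, 20.5% and 1.89%. For CD40 they were 54.9%, 37.6% and 0% of those per T-like cell, on 2, 2 and 0 UMIs.

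**Figure D2:**
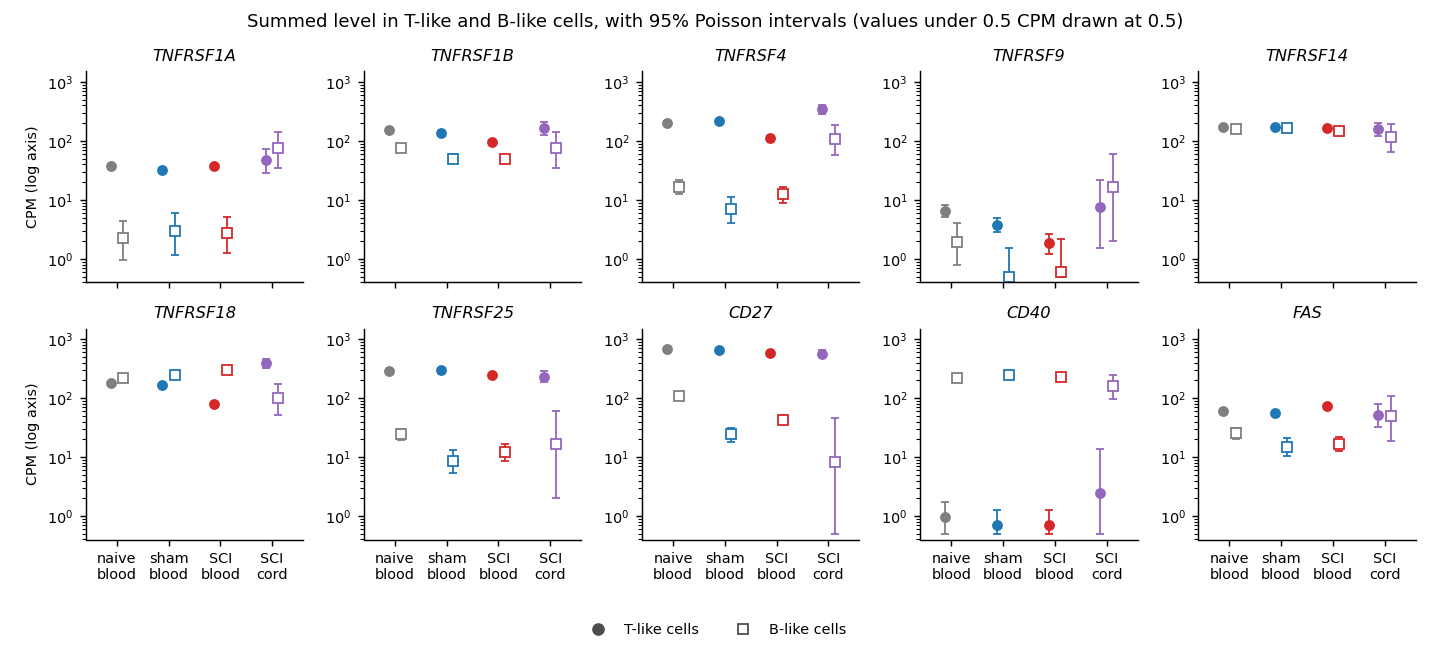
Levels of the 10 genes in T-like cells (filled circles) and B-like cells (open squares) of the 4 libraries, as CPM of summed UMIs on a log axis with 95% Poisson intervals. TNFRSF4 and TNFRSF18 in T-like cells are lowest in SCI blood and highest in the cord, and the B-like values of the cord rest on 9 cells.

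Shares of cells were compared at equal depth. After each cell was thinned to 1000 UMIs, CD40 was detected in 19.7% (exact binomial interval 17.6 to 22.0) of B-like cells in naïve blood, 21.8% (18.5 to 25.4) in sham and 23.0% (20.3 to 25.8) in SCI blood. Before thinning these shares were 41.8%, 55.9% and 51.1%, at median depths of 3671, 5653 and 4975 UMIs. In T-like cells, which should lack CD40, the thinned share was 0.0951%, 0.0543% and 0.0433% (0.261%, 0.245% and 0.216% before thinning, at 3511, 5038 and 4545 UMIs). CD27 was detected in 46.1%, 47.1% and 42.1% of thinned T-like cells (74.9%, 85.6% and 77.8% before). Basophil or mast-like cells, taken as the class without CD27, had it in 2.11%, 0 and 2.29% of thinned cells (6.32%, 0.847% and 4.58% before, at 3119, 4850 and 3946 UMIs).

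Treg-like cells held the highest mean level of 4 of the 10 genes as well as of TNFRSF14, and the contrast with the other T-like cells of the same library was large for those 4. TNFRSF18 stood at 509, 492 and 332 CPM in Treg-like cells of naïve, sham and SCI blood against 69.1, 53.8 and 34.4 CPM in the other T-like cells. TNFRSF4 stood at 531, 536 and 407 against 98.7, 107 and 57.3. TNFRSF1B stood at 409, 364 and 305 against 73.5, 58.6 and 56.8. In each library the Treg-like level exceeded the other one by 7.36, 9.14 and 9.66-fold for TNFRSF18, by 5.38, 5.0 and 7.10-fold for TNFRSF4 and by 5.56, 6.20 and 5.38-fold for TNFRSF1B. FAS followed with 124, 119 and 144 CPM against 40.6, 34.1 and 59.9, that is 3.05, 3.48 and 2.40-fold.

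These 4 were past 1.5-fold in every blood library, out of 9 genes with at least 20 counts (CD40 had fewer), and 3.84% of all genes were. The death receptor gene TNFRSF1A gave log2 ratios of -0.10, 0.45 and -0.033, TNFRSF25 of 0.22, 0.16 and 0.34, TNFRSF14 of 0.12, 0.17 and 0.24, and CD27 of 0.39, 0.47 and 0.48. All 4 of these stayed inside 1.5-fold. TNFRSF9 gave 0.28, 3.02 and 0.94 on 75, 54 and 28 UMIs in all, with an interval that included 0 in naïve and SCI blood. Among the 15 cord Treg-like cells the ratios to the other 51 were 5.08-fold for TNFRSF18, 6.76-fold for TNFRSF4 and 4.57-fold for TNFRSF1B. Of the 97 TNFRSF4 UMIs, 46 were in 1 cell, and without it the ratios were 4.06, 4.18 and 3.93-fold.

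**Figure D3:**
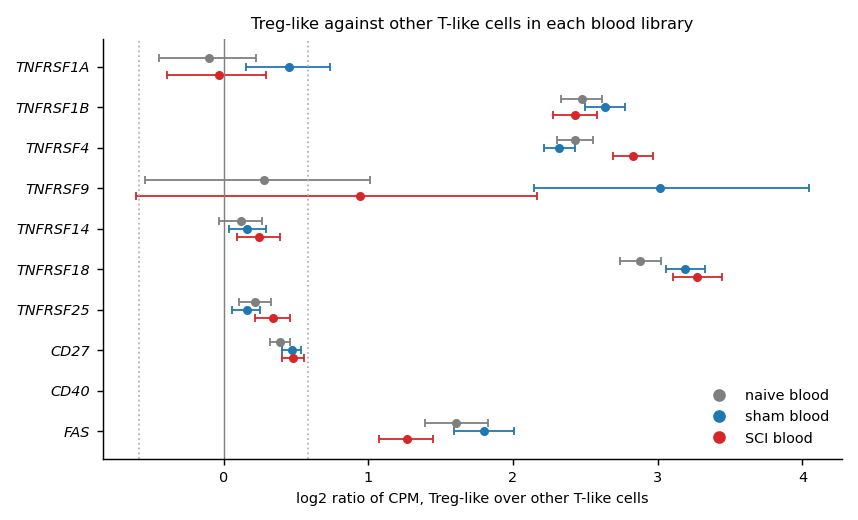
Log2 ratio of Treg-like to other T-like cells within each blood library for 9 of the 10 genes (CD40 has too few counts), with 95% counting intervals; dotted lines mark 1.5-fold. TNFRSF1B, TNFRSF4, TNFRSF18 and FAS lie above the upper line in all 3 libraries, and the others lie near 0 apart from TNFRSF9, whose intervals are wide.

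The second place differed between the genes that Treg-like cells led. For TNFRSF4 it was shared by basophil or mast-like cells and the CCR10 CD4 T-like cluster, whose ranges overlapped, the latter with 173, 195 and 146 CPM. For TNFRSF18 it was the main B cluster (260, 269 and 313 CPM), and the CCR10 cluster held 123, 98.5 and 82.7. CD8 T-like and naive T-like cells were low for both genes: CD8 T-like cells held 13.6, 4.68 and 3.61 CPM of TNFRSF4 and 13.6, 2.81 and 4.34 CPM of TNFRSF18.

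TNFRSF4 and TNFRSF18 were also counted within the same cells. In Treg-like cells thinned to 1000 UMIs, TNFRSF18 was detected in 50.1%, 47.5% and 36.8% of cells with a TNFRSF4 UMI and in 27.1%, 30.5% and 21.6% of cells without one. In the other T-like cells these shares were 14%, 14.9% and 16.4% against 5.36%, 3.79% and 2.35%. A thinned Treg-like cell had UMIs of 2.09, 2.07 and 1.88 of the 10 genes on average, another T-like cell of 1.10, 1.09 and 0.976, and a B-like cell of 0.711, 0.696 and 0.704.

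Between the blood libraries, sham against naïve addressed surgery without cord injury, and SCI against sham addressed injury beyond surgery, with host sex not matched. Per the paper, surgery came with anaesthetics, buprenorphine and gentamycin, which sham against naïve cannot tell apart from the laminectomy. SCI against naïve holds surgery, injury and host sex together. The comparisons share libraries, so their values are set side by side and are not independent. In T-like cells of sham against naïve blood, 1 of the 10 genes was past 1.5-fold, TNFRSF9, which was lower (log2 ratio -0.79, interval -1.33 to -0.27), beside 8.25% of all genes in either direction and 4.98% lower. The others lay between -0.45 (CD40, on 21 UMIs) and 0.085 (TNFRSF4).

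In SCI against naïve blood 4 of the 10 genes were past 1.5-fold in T-like cells, all of them lower, where 12.7% of all genes were past it and 6.43% were lower. In SCI against sham blood there were 3, again all lower, beside 11.4% of all genes and 5.09% lower. The median log2 ratio of the 10 was -0.32 and -0.20, and that of all genes -0.020 and 0.014. TNFRSF18 had a log2 ratio of -1.14 (interval -1.25 to -1.04) to naïve and -1.05 (-1.15 to -0.95) to sham. TNFRSF4 had -0.88 (-0.97 to -0.79) and -0.97 (-1.05 to -0.88). SCI blood was the low library for both genes, and sham to naïve gave -0.092 and 0.085. TNFRSF1B, which also serves regulatory T cells, had -0.71 (-0.81 to -0.61) to naïve and -0.53 (-0.63 to -0.43) to sham, the latter just inside 1.5-fold. TNFRSF9 was lower in each step, with -1.82 (-2.51 to -1.19) and -1.03 (-1.75 to -0.35).

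The death receptors and the broadly held genes differed less. FAS was higher in SCI blood, with log2 ratios of 0.25 (interval 0.12 to 0.39) to naïve and 0.38 (0.25 to 0.52) to sham. TNFRSF25 gave -0.23 and -0.26, CD27 -0.20 and -0.15, TNFRSF1A -0.0056 and 0.21, and TNFRSF14 -0.038 and -0.026. None of these was past 1.5-fold.

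The T-like class was not made up alike in these libraries. Treg-like cells made up 26.2% of the naïve class, 29.3% of the sham class and 15.6% of the SCI blood class. CD8 T-like cells were 15.3%, 16.6% and 30.8%, naive T-like cells 4.11%, 3.45% and 12.6%, and the ST6GALNAC1 CD4 T-like cluster 24.6%, 23.7% and 15.7%. Treg-like cells were thus the largest cluster in naïve and sham, and the CD8 cluster was the largest in SCI blood. The summed Treg markers were at 809, 755 and 495 CPM in T-like cells, lowest in SCI blood as TNFRSF4 and TNFRSF18 were, and their part in these levels was not tested beyond the comparison that follows.

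With a common cluster make-up, in which each cluster entered both libraries at its mean share, the log2 ratio of SCI to naïve blood became -0.62 for TNFRSF18, -0.39 for TNFRSF4, -0.33 for TNFRSF1B and -1.34 for TNFRSF9. To sham these were -0.48, -0.41, -0.11 and -0.82. TNFRSF18 and TNFRSF9 stayed past 1.5-fold to naïve, where 10.3% of all genes were past it with this make-up, and TNFRSF9 alone of these to sham (8.75%). FAS went the other way, from 0.25 to 0.50 and from 0.38 to 0.63, which is past 1.5-fold to sham.

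**Figure D4:**
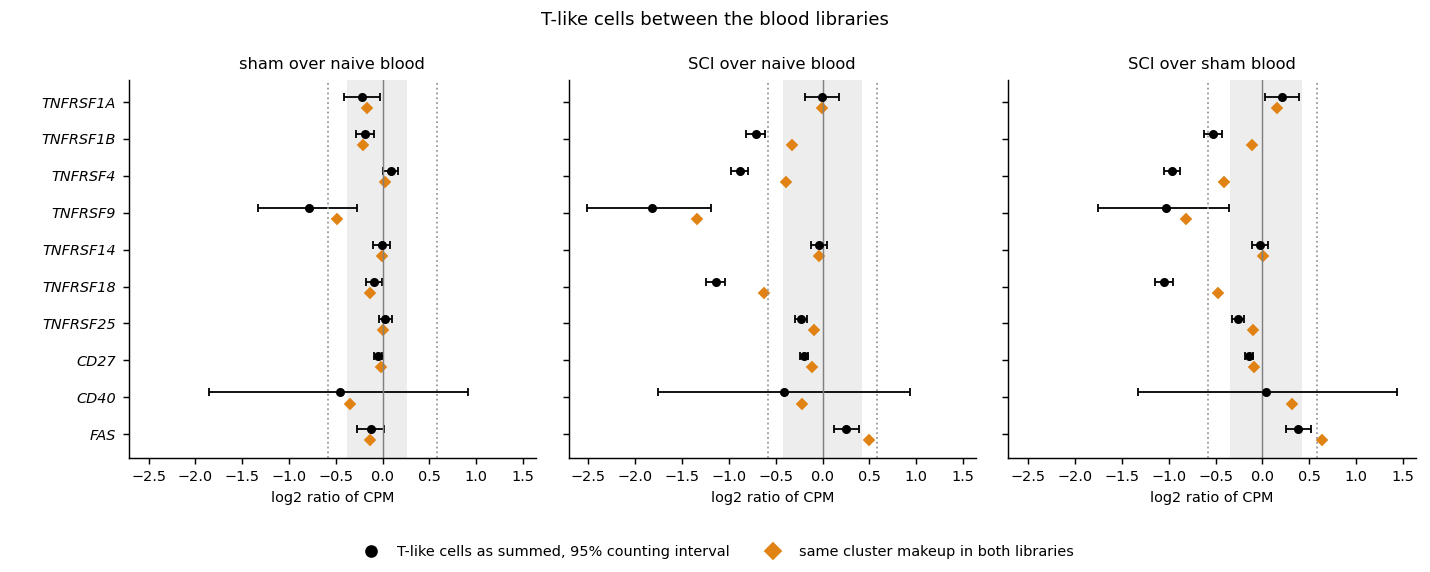
Log2 ratios of the 10 genes in T-like cells for sham to naïve, SCI to naïve and SCI to sham blood, as summed (black circles, 95% counting intervals) and with the same cluster make-up in both libraries (orange diamonds). Grey bands span the 10th to 90th percentile of all genes with at least 20 counts and dotted lines mark 1.5-fold; TNFRSF4, TNFRSF18 and TNFRSF1B lie below the band in SCI blood and nearer to 0 with equal make-up, and FAS moves up.

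Within Treg-like cells TNFRSF18 was lower in SCI blood, with log2 ratios of -0.61 (interval -0.74 to -0.49) to naïve and -0.57 (-0.69 to -0.44) to sham. It passed 1.5-fold to naïve, where 10.2% of all genes did. TNFRSF4 gave -0.38 and -0.40 there and TNFRSF1B -0.42 and -0.25, all inside 1.5-fold. In the other T-like cells TNFRSF4 was at -0.78 to naïve and -0.90 to sham, and TNFRSF18 at -1.01 and -0.65. There 12.4% and 10.4% of all genes were past 1.5-fold. This pool was itself not made up alike. CD8 T-like cells, low for both genes, were 645 of its 3111 cells from naïve mice, 611 of 2602 from sham mice and 1424 of 3902 after SCI. The part of this make-up in the values of the pool was not tested.

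The clusters did not share 1 pattern. In the ST6GALNAC1 CD4 T-like cluster TNFRSF18 was at 85.2, 54.2 and 45.0 CPM in naïve, sham and SCI blood, so that sham lay with SCI and not with naïve (log2 ratio of sham to naïve -0.65, of SCI to sham -0.27). TNFRSF4 was at 139, 136 and 90.7 CPM in the same cells, with sham beside naïve. In cytotoxic T-like cells TNFRSF4 had its highest blood level in SCI blood, 33.3 CPM on 48 UMIs against 16.4 and 22.0 (log2 ratio to naïve 1.01, interval 0.29 to 1.80). In that comparison 14.7% of all genes were past 1.5-fold and 6.24% were higher. Marked doublets were 13.5%, 11.6% and 13.6% of this cluster in naïve, sham and SCI blood, and their part in these levels was not tested.

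FAS differed most in the CD4 clusters. In the CCR10 CD4 T-like cluster it was at 37.5 CPM (interval 30.1 to 46.3) for naïve, 28.2 (22.6 to 34.8) for sham and 80.3 (70.3 to 91.3) for SCI blood, on 87, 88 and 233 UMIs. In the ST6GALNAC1 CD4 T-like cluster it was at 37.3 (30.6 to 45.0), 38.6 (32.5 to 45.5) and 96.4 CPM (84.9 to 109) on 109, 141 and 253 UMIs. SCI blood stood apart in both, with log2 ratios of 1.09 (0.74 to 1.47) to naïve and 1.5 (1.15 to 1.88) to sham in the first and 1.37 (1.04 to 1.71) and 1.32 (1.02 to 1.63) in the second. In these comparisons 4.69% and 5.03% of all genes were past 1.5-fold higher in the CCR10 cluster, and 4.37% and 4.73% in the ST6GALNAC1 cluster. CD8 T-like cells held 36.8, 33.2 and 31.1 CPM of FAS, with no such step. After thinning, FAS was detected in 2.79% (1.73 to 4.23), 2.71% (1.64 to 4.20) and 8.31% (6.45 to 10.5) of cells of the CCR10 cluster, and in 10.8%, 11.7% and 24.1% before thinning. In the ST6GALNAC1 cluster the thinned shares were 3.67%, 4.48% and 8.25%, and 9.35%, 13.7% and 25.2% before. No background class had been set for FAS beforehand. Basophil or mast-like cells, set beside them as a class lower in FAS, had it in 0, 2.54% and 3.05% of thinned cells. Before thinning these were 6.32%, 5.93% and 9.92%, at medians of 3119, 4850 and 3946 UMIs against 3889, 5659 and 4862 in the CCR10 cluster. The SCI shares of both CD4 clusters lay above these. Basophil or mast-like cells held FAS themselves (mean 23.8 CPM in blood), so they give no background. In mouse barcodes FAS was found in 0.0716%, 0.256% and 0.0824%. Marked doublets were 3.05%, 3.71% and 4.75% of the CCR10 cluster and 3.57%, 3.33% and 6.6% of the ST6GALNAC1 cluster, and without them the log2 ratios of FAS to naïve and to sham were 1.20 and 1.54 in the first and 1.42 and 1.44 in the second.

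**Figure D5:**
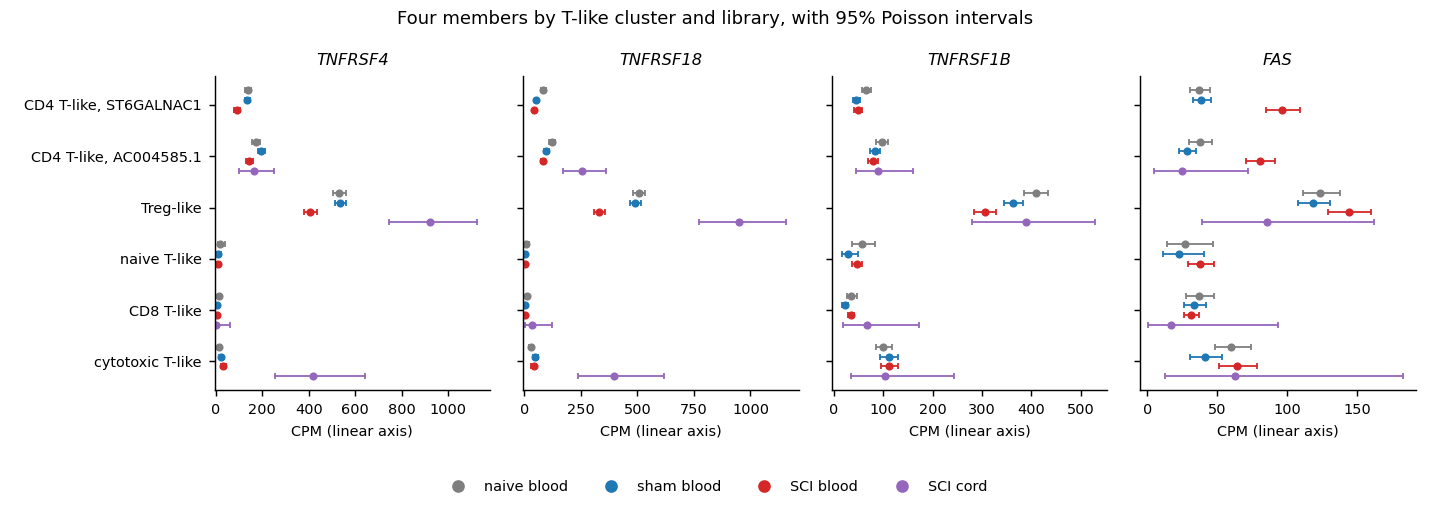
CPM (linear axis) of TNFRSF4, TNFRSF18, TNFRSF1B and FAS in the 6 T-like clusters, by library, with 95% Poisson intervals; AC004585.1 names the CCR10 cluster, and the cord is drawn where it has at least 10 cells. Treg-like cells are highest for all 4 genes in the 3 blood libraries, and FAS in both CD4 clusters is higher in SCI blood than in naïve or sham blood.

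Thinned shares followed the summed levels for the costimulators. TNFRSF4 was detected in 14.5% (interval 13.5 to 15.6), 15.5% (14.4 to 16.7) and 8.39% (7.61 to 9.23) of T-like cells in naïve, sham and SCI blood, and in 27.1%, 33.3% and 18.3% before thinning. TNFRSF18 was detected in 13.5% (12.5 to 14.6), 13.9% (12.8 to 15.1) and 6.58% (5.88 to 7.33), and in 24.9%, 28.3% and 15.0% before. B-like cells had been set as the class without TNFRSF4 and TNFRSF18. They had a TNFRSF4 UMI in 0.864%, 0.703% and 0.957% of thinned cells (3.14%, 1.58% and 3.30% before), but a TNFRSF18 UMI in 16.1%, 19.3% and 20.6% (34.2%, 45.0% and 48.0% before), so for TNFRSF18 they give no background. The plasma-like cells of naïve blood, looked at in their place after this was seen, had it in 3.13% of 383 cells before thinning and in 0 after it, which allows a share of up to 0.959% (upper bound of the exact interval).

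In B-like cells, 8 of the 10 genes had at least 20 counts. In sham against naïve blood 5 were past 1.5-fold, all lower (TNFRSF1B, TNFRSF4, TNFRSF25, CD27 and FAS), beside 11.5% of all genes in either direction and 7.02% lower. In SCI against naïve blood 3 were, TNFRSF1B, TNFRSF25 and CD27, all lower, beside 11.6% of all genes in either direction, 4.70% higher and 6.85% lower. In SCI against sham blood TNFRSF4 and CD27 were past it, both higher, beside 10.4% in either direction and 5.72% higher.

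These counts depended on the marked doublets. Without them 3 genes were past 1.5-fold in sham against naïve blood (TNFRSF4, CD27 and FAS, lower), 3 in SCI against naïve blood (CD27 and FAS lower, TNFRSF4 higher) and 1 in SCI against sham blood (TNFRSF4, higher), beside 10.5%, 11.2% and 10.1% of all genes. TNFRSF25 had log2 ratios of -1.45 and -1.01 to naïve in sham and SCI blood with the marked cells and -0.32 and -0.53 without them, and the latter intervals included 0. TNFRSF1B went from -0.62 in both to -0.51 and -0.57, just inside 1.5-fold. TNFRSF4 in SCI against naïve blood went from -0.43 to 0.69 (interval -0.18 to 1.61, on 30 and 19 UMIs). CD40 (log2 ratios 0.19, 0.094 and -0.097, and 0.14, 0.080 and -0.057 without the marked cells) and TNFRSF14 (0.057, -0.11 and -0.17) differed little in the 3 comparisons.

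CD27 was highest in naïve blood with and without the marked cells. It stood at 108 CPM (interval 97.3 to 119) for naïve, 24.1 (18.3 to 31.2) for sham and 43.3 (36.5 to 51.0) for SCI blood with them. Without them naïve stood at 74.8 (65.6 to 85), and sham and SCI blood overlapped at 21.2 (15.7 to 27.9) and 23.2 (18.1 to 29.2). The log2 ratio to naïve was then -1.81 (-2.29 to -1.38) for sham and -1.68 (-2.09 to -1.30) for SCI blood, while SCI against sham changed from 0.84 (0.39 to 1.31) to 0.13 (-0.41 to 0.68). The thinned share of cells with a UMI, marked cells included, was 7.86% (6.44 to 9.47), 1.93% (0.969 to 3.43) and 3.09% (2.08 to 4.4), and 15.9%, 7.56% and 9.36% before thinning.

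Most CD27 UMIs of naïve B-like cells lay in the AIM2 cluster. It held 307 of the 389 there, 4 of 58 in sham and 67 of 144 in SCI blood. Without marked doublets the cluster was 172 cells or 14.5% of the naïve B-like class, with 0.535% and 1.00% for sham and SCI blood (3 and 9 cells), and it held 160 CD27 UMIs in naïve, at 249 CPM (interval 212 to 291), and 1 in each of the others. In these 172 cells the 7 general T markers summed to 2.08% of their T-like level and single markers reached at most 10.7%, whereas CD27 stood at 37.2% of its T-like level. TNFRSF1B and FAS stood at 72.6% and 73.6% of theirs in the same cells, and TNFRSF4 at 0.748%. The part of T cell RNA in these values was not tested beyond this. In the main B cluster CD27 was at 33.4, 24.0 and 24.7 CPM, log2 ratios to naïve of -0.47 (-1.0 to 0.039) and -0.44 (-0.91 to 0.033), within counting error.

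FAS was at 25.2 CPM (interval 20.3 to 30.9), 15.0 (10.5 to 20.7) and 16.8 (12.7 to 21.9) in B-like cells, on 91, 36 and 56 UMIs. The log2 ratio to naïve was -0.74 (-1.35 to -0.18) in sham and -0.58 (-1.09 to -0.086) in SCI blood, and -0.77 and -0.73 without marked doublets. The AIM2 cluster held 41 of the naïve UMIs.

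TNFRSF18 lay opposite to its T-like values. In B-like cells it was at 216 CPM (interval 201 to 231) for naïve, 248 (229 to 269) for sham and 296 (278 to 316) for SCI blood, log2 ratios of 0.20, 0.46 and, for SCI to sham, 0.26, all inside 1.5-fold. Without marked doublets these were 0.19, 0.47 and 0.29, and with a common cluster make-up 0.037, 0.26 and 0.24. Under a class set by single marker genes, of whose 1381 cells in naïve blood 1150 were in the B-like clusters, the ratios to naïve were 1.03 and 1.37, in a class where the median of all genes shifted to 0.22 and 0.20 and 29.5% and 30.5% of them were past 1.5-fold. The main B cluster held 260, 269 and 313 CPM and the AIM2 cluster of naïve blood 129. At a finer resolution the main cluster split into a TCL1A group with 336, 350 and 406 CPM and an ARHGAP24 group with 237, 211 and 268.

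The SCI cord library gave 66 T-like cells, of which 15 were Treg-like, 19 in the CCR10 cluster, 10 cytotoxic and 10 CD8 T-like. Against SCI blood, 4 of 9 genes with at least 20 counts were past 1.5-fold, all higher. In this comparison 36.4% of all genes were past it and 21.5% were higher, so such a count is common here. TNFRSF18 was at 387 CPM (interval 328 to 453) on 155 UMIs in the cord against 80.1 in SCI blood, a log2 ratio of 2.28 (2.02 to 2.51). TNFRSF4 was at 342 CPM (287 to 404) on 137 UMIs against 111, a log2 ratio of 1.63 (1.36 to 1.87). TNFRSF1B was at 165 CPM (127 to 209) on 66 UMIs against 95, a log2 ratio of 0.80 (0.41 to 1.15). The cord value was thus above every blood library for TNFRSF4 and TNFRSF18, whereas for TNFRSF1B it was near the naïve value. For TNFRSF4 most of that distance rested on 1 cell, without which the cord stood at 236 CPM beside 217 in sham blood. Treg-like cells made up 22.7% of the cord T-like class against 15.6% in SCI blood, and CD8 T-like cells 15.2% against 30.8%. With a common cluster make-up the log2 ratios to SCI blood were 1.74 for TNFRSF18 and 1.19 for TNFRSF4. TNFRSF1B came to 0.35, inside 1.5-fold, and FAS to -0.82, past it, where 39.4% of all genes were past it.

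TNFRSF9 had 3 UMIs in the cord (log2 ratio 2.23, interval -0.33 to 3.73). The death receptors and CD27 did not stand apart: FAS was at 52.4 CPM on 21 UMIs (-0.44, interval -1.17 to 0.15), TNFRSF1A at 47.4 on 19 UMIs (0.40, -0.38 to 1.02), TNFRSF25 at 232 (-0.093) and CD27 at 564 (-0.041). TNFRSF14 was at 160 CPM (-0.042). At this depth the intervals of FAS and TNFRSF1A allow a 2-fold difference in 1 direction.

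One Treg-like cell of 15391 UMIs held 46 of the 137 TNFRSF4 UMIs, 32 of the 155 TNFRSF18 UMIs and 11 of the 66 TNFRSF1B UMIs. Without it TNFRSF4 was at 236 CPM (log2 ratio 1.09), TNFRSF18 at 319 (2.00) and TNFRSF1B at 143 (0.60), all still past 1.5-fold, and FAS came to -0.60 and past it. UMIs were found in 27 of 66 cells for TNFRSF18, in 21 for TNFRSF4 and in 32 for TNFRSF1B. In Treg-like cells TNFRSF18 was at 949 CPM in the cord (log2 ratio 1.52, interval 1.20 to 1.82) and TNFRSF4 at 921 (1.18, 0.86 to 1.48), where 47.0% of all genes were past 1.5-fold. Without the one cell these were 756 CPM (1.20, 0.81 to 1.55) for TNFRSF18, still past 1.5-fold, and 567 CPM (0.49, 0.042 to 0.88) for TNFRSF4, which no longer was. The 10 cytotoxic T-like cells held 396 CPM of TNFRSF18 (interval 238 to 618) against 41.7 in SCI blood, and 417 of TNFRSF4 (254 to 643) against 33.3, in a comparison where 56.9% of all genes were past 1.5-fold. These rest on 19 and 20 UMIs found in 2 cells per gene, and without the cell highest in each gene the levels were 168 and 144 CPM. In the 19 cells of the CCR10 cluster TNFRSF18 was at 253 CPM against 82.7 (log2 ratio 1.64, interval 1.03 to 2.16), and TNFRSF4 at 163 against 146 (0.20, -0.56 to 0.81). A list of 14 genes known to rise during tissue dissociation summed to 7289 CPM in cord T-like cells against 4377 in SCI blood, and its part in these ratios was not tested.

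The 9 B-like cells of the cord had 19 UMIs of CD40, 14 of TNFRSF14, 13 of TNFRSF4 in 2 cells and 12 of TNFRSF18. Markers of other cell types were high in them. The 9 monocyte markers summed to 5043 CPM, on 603 UMIs in 4 of the cells and with 8 detected (S100A12 at 0), against 18.6 CPM in B-like cells of SCI blood. Basophil or mast cell markers stood at 753 CPM, on 90 UMIs of which 88 were in 1 cell, against 2.10, with 3 of 8 detected. The 10 B cell markers were at 6113 CPM against 11666. The cell with the most monocyte marker UMIs held 6 of the CD40, 1 of the TNFRSF14, 2 of the TNFRSF4 and 1 of the TNFRSF18 UMIs. The part of these other cell types in the members' values was not tested. CD27 had 1 UMI there.

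The ligands of these receptors were read in the same cells. LTB, a lymphotoxin subunit, was at 2662, 2624, 3068 and 2492 CPM in T-like cells of naïve, sham, SCI blood and cord. TNF was at 35.8, 28.4, 28.4 and 115 CPM and LTA at 14.7, 14.9, 18.3 and 34.9. Both were thus highest in the cord, by log2 ratios of 2.03 and 0.98 to SCI blood. FASLG, the ligand of FAS, was at 7.28, 4.17, 4.04 and 47.4 CPM, the last on 19 UMIs. TNFSF14, the ligand of TNFRSF14, was at 40.5, 28.5, 26.9 and 62.4 CPM. CD40LG was at 82.6, 85.3, 73.3 and 190 CPM, and CD70, the ligand of CD27, at 9.63, 11.3, 8.67 and 39.9. TNFSF4, the ligand of OX40, had 2, 5, 12 and 8 UMIs, and TNFSF9, the ligand of 4-1BB, 11, 9, 8 and 1. TNFSF15 had 3, 16, 7 and 0 UMIs. TNFSF18, the ligand of GITR, had no UMI in T-like or B-like cells of any library.

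Of the 11 ligands, 7 of the 8 with at least 20 counts were past 1.5-fold higher in cord T-like cells than in SCI blood, and none was lower (median log2 ratio 1.70, all genes 0.040), beside 21.5% of all genes higher and 36.4% in either direction. The dissociation list, at 7289 against 4377 CPM, lies beside this too, and its part was not tested. Make-up differed as well. Cytotoxic T-like cells were 15.2% of the cord class against 8.91% in SCI blood, the CCR10 cluster 28.8% against 16.4% and Treg-like cells 22.7% against 15.6%. The cord levels rest on 66 cells, and no ligand value with a common make-up or without single cells is given. In blood the ligands differed less in T-like cells. FASLG was past 1.5-fold lower in sham (log2 ratio -0.80, interval -1.31 to -0.31) and in SCI blood (-0.85, -1.35 to -0.36) than in naïve blood, and TNFSF14 was so in SCI blood (-0.59, -0.79 to -0.40). TNFSF9 in sham against naïve and TNFSF15 in SCI against sham blood were also past it, on 20 and 23 UMIs with intervals that included 0. This made 2 of 8, 2 of 7 and 1 of 8 ligands in sham to naïve, SCI to naïve and SCI to sham, all lower, beside 4.98%, 6.43% and 5.09% of all genes. Cytotoxic T-like cells made up 11.9% of T-like cells for naïve mice, against 7.93% for sham and 8.91% for SCI blood. The part of cluster make-up in the blood ratios of FASLG and the other ligands was not tested. CD70 and CD40LG divided the T-like class. CD70 was at 27.6, 30.6 and 21.2 CPM in Treg-like cells of naïve, sham and SCI blood against 3.79, 4.58 and 6.39 in the others. CD40LG was at 15.9, 9.75 and 22.9 CPM against 104, 111 and 82.4. In B-like cells CD70 was at 11.9, 7.07 and 30.7 CPM on 43, 17 and 102 UMIs, highest in SCI blood (log2 ratio to naïve 1.36, interval 0.84 to 1.91, and 1.28 without marked doublets). Its receptor CD27 was below its naïve level there, and also in sham blood, where CD70 was lowest.

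None of the 15 adaptors and regulators was past 1.5-fold in T-like cells between blood libraries, in any of the 3 comparisons. In the cord 5 were higher than in SCI blood (TRAF1, TRAF2, TRAF3, MAP3K14 and TNFAIP3) and TRADD, the adaptor of death-domain receptors, was lower, so that 6 of 15 were past 1.5-fold beside 36.4% of all genes, a share near that of all genes. TNFAIP3 (A20), an inhibitor of NF-κB signalling, was at 66.4, 89.1, 96.4 and 225 CPM in naïve, sham, SCI blood and cord. TRADD was at 230, 220, 209 and 135. The intervals of TRAF2, TRAF3 and MAP3K14, on 10, 17 and 11 cord UMIs, included 0. BIRC3, which binds TRAF proteins, was the 1 adaptor past 1.5-fold higher in Treg-like than in other T-like cells in all 3 blood libraries, beside 3.84% of all genes (log2 ratios 1.08, 1.05 and 0.90). B-like cells differed from T-like cells in 9 of the 15, of which 3 were higher and 6 lower in all blood libraries, beside 13.0% and 14.7% of all genes. TRAF3 was among the higher ones, at 57.9, 54.5 and 63.7 CPM against 27.1, 30.1 and 29.0, and so was BIRC3, at 606, 578 and 644 against 341, 330 and 257.

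Of 18 other receptors of the family, 8 had at least 20 counts in T-like and B-like cells together, and 4 were higher and 2 lower in B-like cells in all blood libraries, where 13.0% and 14.7% of all genes were. The higher ones included the BAFF receptors TNFRSF13B (404, 268 and 272 CPM in B-like cells) and TNFRSF13C (351, 335 and 319) and RELT (76.7, 97.3 and 83.6). TNFRSF13B, a leading gene of the AIM2 cluster, was like CD27 highest in naïve blood, with a log2 ratio of -0.59 for sham.

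The genes whose levels ran most like those of the members were found over 31 sums of clusters or classes in the 3 blood libraries, among 6842 genes, by Pearson's r of log values. The sums share libraries and clusters, so r is a description. TNFRSF25 ran with CD3G (0.98), CD247 (0.97) and LINC00649 (0.97), the first 2 being parts of the T cell receptor complex, and CD27 with GPRIN3 (0.96), ZAP70 (0.96) and SPOCK2 (0.95). CD40 ran with KYNU (0.95), ARHGAP24 (0.95) and MARCKS (0.94). TNFRSF4 was nearest to IL2RA (0.86), the IL-2 receptor subunit that regulatory T cells hold, then ANXA7 (0.84) and MAF (0.84), and TNFRSF1B to MAP3K5 (0.83). TNFRSF18 had PHTF2 (0.84) nearest, FAS had GCH1 (0.83), TNFRSF1A had JAML (0.89) and TNFRSF14 had PACS1 (0.94). Between members the highest values were those of TNFRSF25 with CD27 (0.89), TNFRSF1B with FAS (0.77) and TNFRSF4 with TNFRSF18 (0.68).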

How the data were processed

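Human CD45+ cells were captured on the 10x Chromium 3′ v3 platform. Per the labels, the authors aligned the reads to a combined human (GRCh38) and mouse (mm10) genome with CellRanger 3.1.0, and the deposited matrices hold raw UMI counts per gene and barcode.

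From these counts, barcodes with over 50% human UMIs were taken. They were dropped if log UMIs or log genes lay over 3 median absolute deviations below the library median. The same held for a mitochondrial or ribosomal protein share over 3 such deviations above it. High UMI numbers led to no removal at this step. Doublets were marked from simulated doublets (0.8% per 1000 barcodes) and removed when over 3000 genes were detected. The number marked was rounded down and came to 0 of the 138 human barcodes of the cord. Cells were clustered in scanpy 1.11.5 (2000 variable genes, 30 components, 15 neighbours, Leiden resolution 0.8; members and pathway genes left out) and named from marker lists. A cluster with over 50% of cells marked as doublets was set aside, which applied at resolution 1.5 alone. UMIs were summed per class and library, scaled to CPM without ribosomal protein and mitochondrial genes, and compared as log2 ratios with 0.5 added counts where at least 20 counts were present. A gene was counted when past 1.5-fold. Ratio intervals are conditional binomial. TMM factors for 1 alternative came from edgeR 4.0.16. Scripts were tested on simulated data. Other tools were Python 3.11.15, numpy 2.4.6, scipy 1.17.1 and pandas 2.3.3.

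Named genes were the 10 members, the ligand of each, listed pathway genes past 1.5-fold with at least 100 counts, and for each member with a mean of at least 20 CPM the genes with the most like pattern. The members and lists were chosen with earlier results of these data known. The AIM2 cluster left out of the B-like class, the cord without 1 cell and 2 other random seeds of the clustering were alternatives chosen after seeing the data. So were the values of single cord clusters without 1 cell and, for single clusters, pathway genes and ratios of TNFRSF4 to TNFRSF18, those without marked doublets. Values without marked doublets drop all barcodes marked, whatever their gene number.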

Additional observations from a re-analysis of the deposited data

Results flagged for a closer look

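TNFRSF18 stood on opposite sides of 0 in T-like and B-like cells in all 3 blood comparisons. The log2 ratio was -0.092 in T-like and 0.20 in B-like cells for sham to naïve, -1.14 and 0.46 for SCI to naïve, and -1.05 and 0.26 for SCI to sham. For sham to naïve the T-like value was above 0 with thinned cells (0.070), with the mean of per-cell CPM (0.0044) and without scaling (0.42), and for SCI to sham the B-like value was -0.00085 without scaling. With a common cluster make-up the B-like values were 0.037, 0.26 and 0.24. Over the alternatives the B-like value for sham to naïve went down to -0.0038. FAS lay on opposite sides for SCI to naïve, with 0.25 in T-like and -0.58 in B-like cells. TNFRSF4 did so for sham to naïve, with 0.085 and -1.20 (-0.94 in B-like cells without marked doublets). CD27 did so for SCI to sham, with -0.15 and 0.84, and the latter was 0.13 without marked doublets. With 1 library per condition, these differences between the classes were not tested.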

How the results depend on the processing

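Of 183 recomputed counts of genes past 1.5-fold, over 10 comparisons and 20 alternatives, 163 stayed within 1.5 times the value above and 20 in 6 comparisons did not. In T-like cells UMIs per cell, without scaling to CPM, gave 8 for the cord, and equal cluster weights gave 0 for sham to naïve and 2 for SCI to naïve. In B-like cells the counts for sham to naïve, SCI to naïve and SCI to sham were 1, 1 and 1 with thinned cells, 1, 0 and 1 with equal cluster weights, and 1, 0 and 1 without the AIM2 cluster. Sham to naïve was 2 at resolution 1.5, 3 without marked doublets and 1 without the filter on outlying barcodes. SCI to sham was 1 under each of these and with the marker gate, and 0 without scaling. TNFRSF25 in B-like cells of sham to naïve turned from -1.45 to 0.12 (thinned), 0.85 (equal weights), 0.44 (marker gate), 0.0013 (no filter on outlying barcodes) and 0.79 (without the AIM2 cluster), and in SCI to naïve from -1.01 to 0.17, 0.42, 0.097 and, without the AIM2 cluster, 0.41. TNFRSF1B turned from -0.62 to 0.25 and 0.081 with the marker gate in these comparisons, and TNFRSF4 from -1.20 to 0.15 in sham to naïve without the filter on outlying barcodes. The cause was not tested. Of the other values, 1910 stayed, 344 moved by more than their interval and 12 reversed. Another random seed of the clustering moved none of the members' values beyond their intervals.

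Without scaling, the median log2 ratio of all genes shifted to 0.48, 0.26 and -0.22 in T-like cells (sham to naïve, SCI to naïve, SCI to sham), to 0.91 in the cord, and to 0.56, 0.30 and -0.25 in B-like cells. The higher share of all genes past 1.5-fold was then 96.3%, 81.8%, 25.8% and 95.7% in T-like cells against 39.6%, 49.5%, 55.3% and 59.0%, and 95.9%, 84.7% and 18.7% against 39.1%, 40.7% and 55.1% in B-like cells. With all human genes in the total the median shifted to -0.12 for SCI to naïve in both classes, and the share was 36.7% and 42.9% in T-like cells and 25.4% and 44.0% in B-like cells for SCI to naïve and to sham. TNFRSF4, TNFRSF18 and TNFRSF1B in T-like cells stayed lower in SCI blood in every alternative. Without scaling, 17 of the members' T-like ratios and 3 of their B-like ratios changed sign, each inside 1.5-fold before: 7 for sham to naïve (TNFRSF1A, TNFRSF1B, TNFRSF14, TNFRSF18, CD27, CD40 and FAS), 4 for SCI to naïve (TNFRSF1A, TNFRSF14, TNFRSF25 and CD27), TNFRSF1A and CD40 for SCI to sham, TNFRSF14, TNFRSF25, CD27 and FAS for the cord, and in B-like cells TNFRSF14 for SCI to naïve and TNFRSF18 and FAS for SCI to sham. Depth limits the cord most, with 66 T-like cells. No paired analysis was possible because each condition has 1 library.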
